A study of Homo sapiens with 6 samples.

Results

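The apolipoprotein L family was followed in U87MG cells, an established human glioblastoma line, after exposure to P-bi-TAT. The members were taken by name, APOL1 to APOL6, and all 6 were measured, out of 17687 genes in all. The probe set of each gene was to be chosen by its mean level over the 6 arrays, the highest being read, but every APOL gene had 1 probe set, so this choice changed nothing. P-bi-TAT is a synthetic compound with a pair of tetrac groups, made to act at the thyroid hormone receptor of integrin αvβ3 on the cell surface. RNA came from cells exposed for 24 h to P-bi-TAT at 30 µM (3 arrays) and from untreated cells, which received PBS for as long (3 arrays). All cells were of a single line and were kept in medium with little serum before exposure. Expression was read on Clariom S microarrays, where several short probes form the probe set of a gene, and the values are on a log2 scale per probe set. Nothing states that replicates were separate cultures, so the spread between them may be technical.

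The APOL genes lie close together on chromosome 22, and APOL1 to APOL4 form a cluster that arose by duplication in primates. Their proteins share an amphipathic, membrane-inserting region that resembles colicins and proteins of the BCL2 family. APOL1 alone carries a secretion signal and circulates on high-density lipoprotein, where it lyses African trypanosomes, and its coding variants are known for a raised risk of kidney disease. The other members stay inside the cell. Several APOL genes are induced by interferon gamma and tumor necrosis factor, and APOL3 acts with guanylate-binding proteins to break open the membranes of bacteria in the cytosol.

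The array of P-bi-TAT replicate 1 differed from all others. Its median over gene probe sets was 3.52, against 4.73 to 4.85 in the others, and it held 4527 distinct values, against 23072 to 23438. The median of the negative control probe sets was 3.20 to 3.27 in the P-bi-TAT arrays and 3.67 to 3.98 in the untreated arrays. Their 95th percentile was 5.76 to 6.09 in the P-bi-TAT arrays and 6.99 to 7.72 in the untreated arrays. The mean of the spike-in control probe sets was 10.28 to 10.78 in the P-bi-TAT arrays and 11.95 to 12.39 in the untreated arrays. These differences between the groups remain without P-bi-TAT replicate 1, and they cannot be told apart from treatment. A level is called above background where it exceeded the median of its own array's negative controls. In each array the median over gene probe sets lay below the 95th percentile of the negative controls. Most gene probe sets of an array thus did not exceed that percentile, and the share of genes that exceeded it in no array was not computed. The part of these array differences in the results was not tested, and the log2 difference of each member is also given without P-bi-TAT replicate 1. Levels of different probe sets are not comparable with each other.

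APOL2 was higher and APOL3 lower in every P-bi-TAT array than in every untreated array, and the other members overlapped between the groups. APOL2 had a log2 difference of 1.77 (standard error 0.54, 3.40-fold) and APOL3 one of -2.19 (standard error 0.64, 4.58-fold lower). None of the 6 members passed an adjusted p under 0.05 (limma), as none of the 17687 genes did (0% called), while 2 of the 6 passed an unadjusted p under 0.05, as did 914 genes (5.17%). With limits of at least 1.5-fold and p under 0.05 before adjustment, called the fold and p limits from here on, APOL2 was 1 of 34 higher genes (0.192%) and APOL3 1 of 880 lower genes (4.98%). The family was chosen with earlier results of these data known, so these p-values describe the fit and carry no independent weight.

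**Figure D1:**
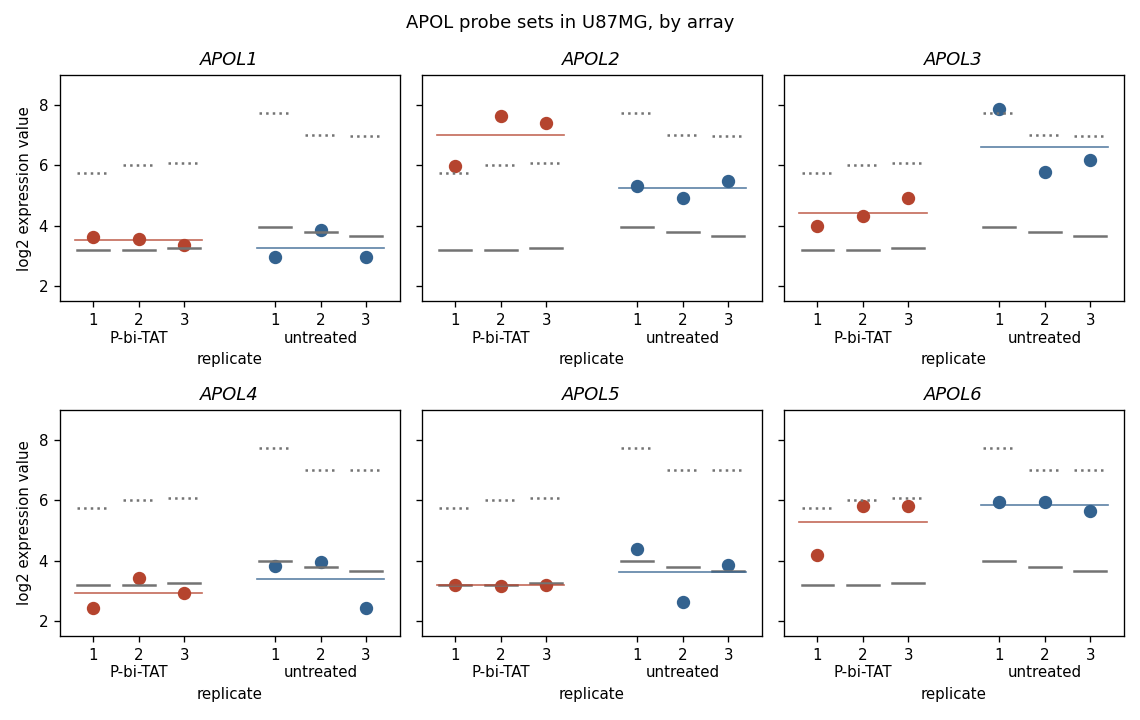
Log2 expression values of the 6 APOL probe sets in each array, with P-bi-TAT arrays in red and untreated arrays in blue, and coloured lines at the group means (n = 3). Grey solid and dotted marks give the median and the 95th percentile of the negative control probe sets of that array. The P-bi-TAT arrays lie above the untreated arrays for APOL2 (5.99 to 7.63, against 4.93 to 5.48) and below them for APOL3 (3.99 to 4.92, against 5.77 to 7.87).

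APOL1, the secreted member, was near background in both groups. Its log2 values were 3.64, 3.57 and 3.38 in the P-bi-TAT arrays and 2.97, 3.86 and 2.98 in the untreated arrays. The groups overlapped, since untreated replicate 2 was the highest array of all. It exceeded the negative control median in 3 of 3 P-bi-TAT arrays and in 1 of 3 untreated arrays. The means were 3.53 ± 0.13 after P-bi-TAT and 3.27 ± 0.51 in untreated cells (SD, n = 3 each), a log2 difference of 0.26 with a 95% interval of -0.75 to 1.27 (limma, unadjusted p = 0.565, adjusted p = 0.915). Without P-bi-TAT replicate 1 the log2 difference was 0.20. After the negative control median of each array was subtracted, a scale chosen after seeing the data, APOL1 was at 0.30 ± 0.17 after P-bi-TAT and at -0.55 ± 0.56 in untreated cells. On that scale the groups did not overlap, as in 6.9% of all genes in the same direction. APOL2 was then higher without overlap too, and APOL3 lower, as in 2.45% of all genes.

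APOL2, an intracellular member associated with the endoplasmic reticulum, was the member that was higher after P-bi-TAT. Its log2 values were 5.99, 7.63 and 7.42 in the P-bi-TAT arrays and 5.32, 4.93 and 5.48 in the untreated arrays. The lowest P-bi-TAT array was 0.51 above the highest untreated array, and replicates 2 and 3 stood well above both. All 6 arrays exceeded their negative control median, but the 95th percentile of the negative controls was exceeded in 3 of 3 P-bi-TAT arrays and in 0 of 3 untreated arrays. That percentile was itself lower in the P-bi-TAT arrays (5.76 to 6.09, against 6.99 to 7.72). P-bi-TAT replicate 1, at 5.99, was below the percentile of each untreated array. The means were 7.01 ± 0.89 after P-bi-TAT and 5.25 ± 0.28 in untreated cells (SD, n = 3 each). The log2 difference of 1.77 had a 95% interval of 0.48 to 3.06 (limma, unadjusted p = 0.0144, adjusted p = 0.847). An exact permutation test over the arrays gave a two-sided p of 0.1, the smallest that 3 arrays against 3 allow. This value is fixed once the groups do not overlap, so it only restates that. On omitting P-bi-TAT replicate 1 the log2 difference was 2.28 (limma, unadjusted p = 0.000328, adjusted p = 0.137), and the groups did not overlap, as in 19.1% of all genes on the higher side. The unadjusted p was above 0.05 without P-bi-TAT replicate 2 (0.0584), without P-bi-TAT replicate 3 (0.0544) or without untreated replicate 2 (0.0508), when the log2 differences were 1.46, 1.56 and 1.61.

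APOL3, an intracellular member with membrane-dissolving activity against bacteria, was the member that was lower after P-bi-TAT. Its log2 values were 3.99, 4.33 and 4.92 in the P-bi-TAT arrays and 7.87, 5.77 and 6.19 in the untreated arrays. The highest P-bi-TAT array was 0.85 below the lowest untreated array. Untreated replicate 1 was the highest array by far and the only one above the 95th percentile of its negative controls, while all 6 arrays exceeded the median. The means were 4.41 ± 0.47 after P-bi-TAT and 6.61 ± 1.11 in untreated cells (SD, n = 3 each). The log2 difference of -2.19 had a 95% interval of -3.71 to -0.68 (limma, unadjusted p = 0.0111, adjusted p = 0.847). The exact permutation test again gave its smallest two-sided p of 0.1, which the lack of overlap fixes. On omitting P-bi-TAT replicate 1 the log2 difference was -1.98 (limma, unadjusted p = 0.0134, adjusted p = 0.248), and the groups did not overlap, as in 17.9% of all genes on the lower side. Without untreated replicate 1 it was -1.57 (unadjusted p = 0.0220).

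APOL4 and APOL5 were at the level of the negative controls. APOL4 had log2 values of 2.44, 3.42 and 2.94 in the P-bi-TAT arrays and 3.82, 3.96 and 2.44 in the untreated arrays. It exceeded the negative control median in 1 of 3 arrays of each group, and its log2 difference was -0.47 with a 95% interval of -1.79 to 0.85 (limma, adjusted p = 0.885). Without P-bi-TAT replicate 1 the log2 difference was -0.22. APOL5 had log2 values of 3.20, 3.17 and 3.21 in the P-bi-TAT arrays and 4.37, 2.65 and 3.86 in the untreated arrays. None of the P-bi-TAT arrays exceeded the negative control median, against 2 of 3 untreated arrays. The log2 difference was -0.43 with a 95% interval of -1.68 to 0.82 (limma, adjusted p = 0.887), and also -0.43 without P-bi-TAT replicate 1. Relative to the negative control medians the direction was the opposite, with -0.03 after P-bi-TAT and -0.19 in untreated cells, so no fold is given. The untreated arrays, with an SD of 0.88, lay on either side of the P-bi-TAT arrays.

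APOL6, an intracellular member with a BH3-like motif that can promote cell death when overexpressed, was lower in P-bi-TAT replicate 1 alone. Its log2 values were 4.20, 5.81 and 5.81 in the P-bi-TAT arrays and 5.94, 5.93 and 5.64 in the untreated arrays. P-bi-TAT replicates 2 and 3 lay between the untreated arrays, and the difference of replicate 1 from the untreated mean was -1.64. That array was lower as a whole, with a median difference of -1.17 over gene probe sets. In it 39% of genes had a lower difference than APOL6. When each array was centred on its median, the difference of APOL6 in replicate 1 was -0.31. The means were 5.27 ± 0.93 after P-bi-TAT and 5.84 ± 0.17 in untreated cells (SD, n = 3 each), a log2 difference of -0.56 with a 95% interval of -1.86 to 0.73 (limma, adjusted p = 0.871). The log2 difference was -0.03 when replicate 1 was left out, with a standard error of 0.37.

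**Figure D2:**
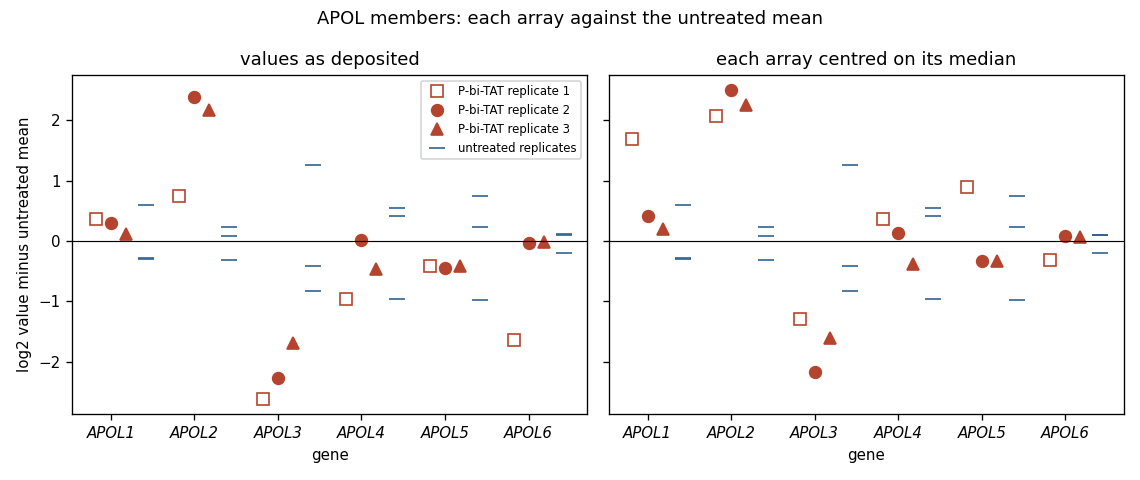
Log2 value of each array minus the mean of the untreated arrays, for the values as deposited and after each array was centred on its median over gene probe sets. Red symbols are the P-bi-TAT arrays and blue dashes the untreated arrays. For APOL2 the P-bi-TAT arrays are 0.74, 2.38 and 2.17 above the untreated mean as deposited and 2.07, 2.50 and 2.26 above it after centring.

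In P-bi-TAT replicate 1 many probe sets carry exactly the same value, and 4 of the members shared theirs with many. The value of APOL5 in that array was shared by 318 other gene probe sets, that of APOL6 by 132, that of APOL1 by 125 and that of APOL4 by 78. The value of APOL2 was shared by 4 other gene probe sets and that of APOL3 by 1. In the other arrays no APOL value was shared by more than 1 other gene probe set. When each array was centred on its median, the P-bi-TAT arrays drew together for APOL2, which was at 2.67 ± 0.21 after P-bi-TAT and at 0.40 ± 0.28 in untreated cells (SD, n = 3 each, log2 relative to the array median). For APOL3 the centred values were 0.07 ± 0.44 after P-bi-TAT and 1.76 ± 1.11 in untreated cells (SD, n = 3 each). The groups did not overlap for either gene after centring, as in 5.94% of all genes on the higher and 3.64% on the lower side.

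Among the 17687 genes, APOL2 and APOL3 lay near opposite ends. Only 18 genes had a higher log2 difference than APOL2 (0.102%) and 62 a lower one than APOL3 (0.351%). By the moderated statistic 8 genes ranked above APOL2 and 140 below APOL3. On omitting P-bi-TAT replicate 1 there were 126 genes above APOL2 (0.712%) and 20 below APOL3 (0.113%). In P-bi-TAT replicate 1 alone, where 8.44% of genes were above the untreated mean, 154 genes exceeded APOL2 and 3074 genes (17.4%) were below APOL3, which was thus not near the end in that array. In P-bi-TAT replicate 2 there were 104 genes above APOL2 and 9 below APOL3, and in replicate 3 there were 221 and 134. Groups that did not overlap were found for 0.758% of all genes on the higher side, where APOL2 was, and for 14.5% on the lower side, where APOL3 was.

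The other members lay in the bulk of the genes. Of the 6 members, 2 had a mean above the untreated mean (21.3% of all genes did) and 4 a mean below it (78.7%). The median log2 difference of the members was -0.45, against -0.43 over all genes, and on omitting P-bi-TAT replicate 1 it was -0.13, against -0.02 over all genes. The members thus had no common direction.

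**Figure D3:**
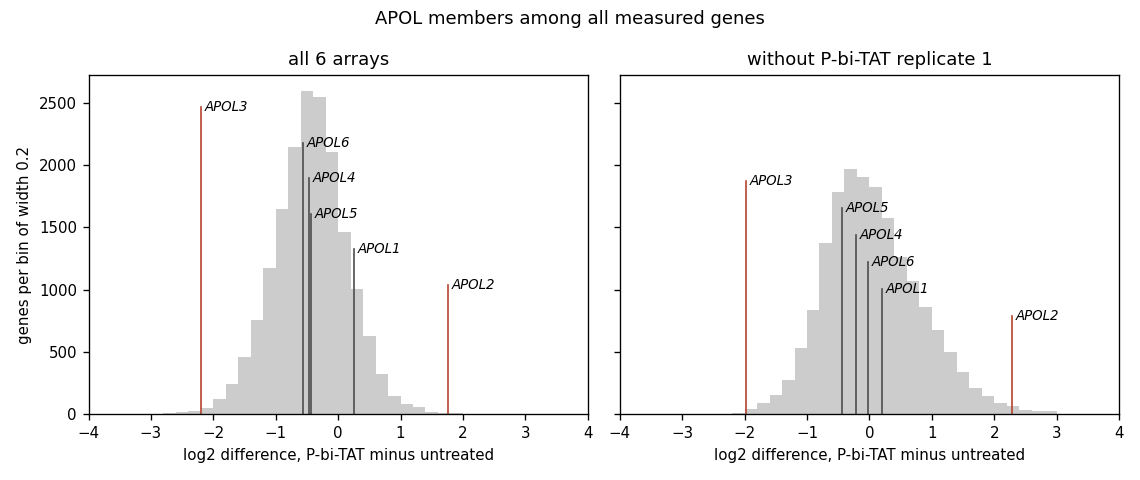
Distribution of the log2 difference, P-bi-TAT minus untreated, over 17687 genes in bins of 0.2, with the APOL members marked by vertical lines whose height has no meaning. In the panels with and without P-bi-TAT replicate 1, APOL3 lies in the lower tail (-2.19 and -1.98) and APOL2 in the upper tail (1.77 and 2.28).

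A shift of a whole array cancels when 2 probe sets are compared within the same array. The members were therefore also set against each other in this way, a reading chosen after seeing the data. Other array differences, such as the many shared values of P-bi-TAT replicate 1, do not cancel. The APOL2 value minus the APOL3 value was 2.00, 3.30 and 2.50 in the P-bi-TAT arrays and -2.55, -0.84 and -0.70 in the untreated arrays. Its mean was 3.96 higher after P-bi-TAT, and P-bi-TAT replicate 1 was nearer to the other P-bi-TAT arrays than to any untreated array. The sign within an array has no meaning, since the probe sets differ, and only the change between the groups can be read. Of the 15 pairs of members, 7 did not overlap between the groups, and each of these 7 held APOL2 or APOL3. Both genes already did not overlap by themselves, and the share over all pairs of genes was not computed. The count of 7 thus adds no separate result. APOL2 minus APOL6 was at 1.74 ± 0.12 in the P-bi-TAT arrays and -0.59 ± 0.42 in the untreated arrays (SD, n = 3 each).

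The same comparison was made with all other genes as partners. APOL2 minus another gene was higher without overlap after P-bi-TAT for 15142 of the 17686 other genes (85.6%), and lower without overlap for 1 (0.00565%). APOL3 minus another gene was lower without overlap for 8590 genes (48.6%), and higher for 0. For APOL1 these shares were 17.0% higher and 0.0905% lower, and for APOL6 3.09% higher and 6.91% lower. For APOL4 they were 1.79% higher and 1.39% lower, and for APOL5 1.84% higher and 0.707% lower. APOL2 and APOL3 already did not overlap by themselves, so their shares add no separate result. Such shares were not computed for genes outside the family.

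**Figure D4:**
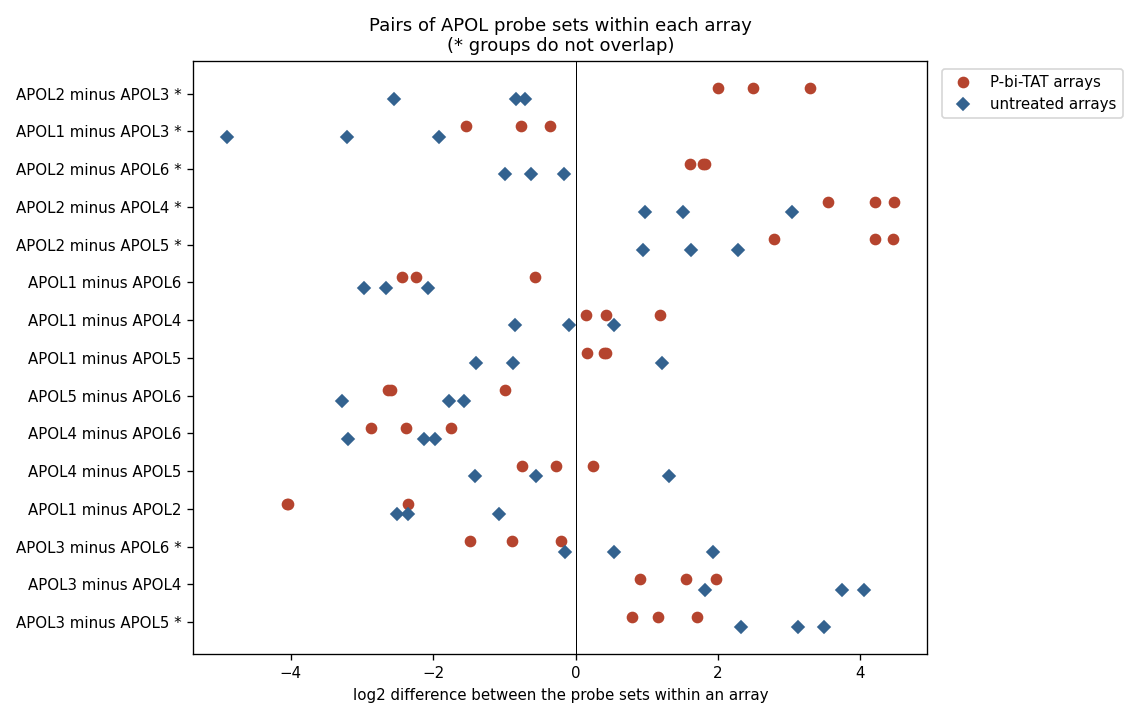
Log2 difference between the 2 probe sets of each of the 15 pairs of APOL members within each array, with P-bi-TAT arrays in red and untreated arrays in blue, ordered by the change between the groups. Asterisks mark the 7 pairs whose groups do not overlap, among them APOL2 minus APOL3, with 2.00 to 3.30 in P-bi-TAT arrays and -2.55 to -0.70 in untreated arrays.

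The members did not all follow each other over the arrays. After centring, Pearson's r over the 6 arrays between a pair of members was at most 0.481 (APOL1 and APOL4). Between APOL2 and APOL3 it was -0.753, and between APOL2 and APOL1, its neighbour in the cluster, it was 0.445. As deposited, r between members was highest for APOL3 and APOL5 (0.714) and lowest for APOL1 and APOL5 (-0.942). The genes most like APOL2 over the 6 centred arrays were INPP5E, a phosphoinositide phosphatase of the primary cilium (r = 0.998), RPS21, a ribosomal protein (r = 0.994), and CHERP, a protein of the endoplasmic reticulum and of splicing (r = 0.992). In the values as deposited they were CHERP (r = 0.996), RPS21 (r = 0.991) and MT1X, a metallothionein (r = 0.983). INPP5E had a log2 difference of 0.13 in the values as deposited, RPS21 one of 2.16, CHERP one of 1.33 and MT1X one of 1.38. For APOL3 the genes most like it after centring were SCNN1A, a subunit of the epithelial sodium channel (r = 0.993), OR51B4, an olfactory receptor (r = 0.986), and HTATIP2, a tumor suppressor of the short-chain dehydrogenases (r = 0.980). In the values as deposited they were ZNF366, LOC100506124 and FZD2, a Wnt receptor (r = 0.998, 0.994 and 0.992). All these are the extremes of 17686 correlations over 6 arrays that share 2 groups and, as deposited, the low values of P-bi-TAT replicate 1. With the values as deposited, 1132 genes had r over 0.95 with APOL6, against 78 after centring.

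In the RefSeq gene table (GRCh38.p14) the protein-coding genes of this stretch of chromosome 22 run in the order APOL6, APOL5, RBFOX2, APOL3, APOL4, APOL2 and APOL1, followed by MYH9, TXN2 and FOXRED2. APOL3, with a log2 difference of -2.19, and APOL2, with 1.77, are thus separated only by APOL4, with -0.47. RBFOX2, a splicing regulator, and MYH9, the heavy chain of nonmuscle myosin, which flank these 4 genes and are named for their position, had log2 differences of 0.01 and -0.07, and of 0.58 and 0.37 without P-bi-TAT replicate 1.

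Of 12 genes listed as neighbours on chromosome 22, 0 were higher (0.192% of all genes) and 3 lower (4.98%) at the fold and p limits. In the 5 other arrays, with P-bi-TAT replicate 1 omitted, 3 were higher (9.26% of all genes) and 3 lower (5.31%). HMOX1, the heme oxygenase that is induced by oxidative stress, had log2 values of 8.07, 12.79 and 12.48 in the P-bi-TAT arrays and of 8.81, 8.55 and 9.15 in the untreated arrays. As deposited, HMOX1 was far above the untreated arrays in P-bi-TAT replicates 2 and 3 and below them in replicate 1. Replicate 1 was lower as a whole, with a median log2 difference of -1.17 from the untreated mean over gene probe sets. HMOX1 was not compared after centring of the arrays. TOM1, an endosomal sorting protein, had a log2 difference of 0.89, and of 1.43 without that array. HMGXB4, a chromatin protein, had one of -2.15 (limma, unadjusted p = 0.0399, adjusted p = 0.847), and of -1.15 without that array. FOXRED2, which acts in degradation at the endoplasmic reticulum, was at 2.72 to 2.81 after P-bi-TAT, below the negative controls' medians, and at 3.24 to 5.50 in untreated cells.

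Components of interferon and tumor necrosis factor signalling are known to act upstream of APOL genes. With all 6 arrays they were spread around the median of all genes, and without P-bi-TAT replicate 1 most lay above it. Of 20 listed genes 17 were measured, and the others were not analysed here. With all 6 arrays 5 were above and 12 below the untreated mean, with a median log2 difference of -0.44, and 0 passed the fold and p limits in either direction. IRF2 and RELB, transcription factors of interferon and NF-κB signalling, had the highest log2 differences (0.65 and 0.62). JAK1, a kinase of cytokine receptors, and REL, an NF-κB subunit, had the lowest (-1.16 and -1.10). Without P-bi-TAT replicate 1, JAK1 was at 0.4 and REL at -0.06, and IRF2 and RELB were at 1.25 and 1.07. In the 5 other arrays, with P-bi-TAT replicate 1 omitted, 13 of the 17 were above the untreated mean (49.3% of all genes). The median log2 difference of the 17 was then 0.50, against -0.02 over all genes. At these limits 2 of the 17 were higher, against 9.26% of all genes. These were NFKB1 and RELA, NF-κB subunits named after their values were seen, with log2 differences of 1.25 and 1.32.

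The 7 guanylate-binding proteins, interferon-induced GTPases that act with APOL3 on bacteria, gave 0 genes at these limits in either direction, with or without P-bi-TAT replicate 1. Their median log2 difference was -0.39, with GBP1 at 0.12 and GBP7 at -1.01, and 6 of the 7 exceeded the 95th percentile of the negative controls in no array. GBP5 had a log2 difference of -0.81 and GBP4 one of -0.08.

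Most of the other apolipoproteins were at low levels, like most gene probe sets of these arrays. Of 18 listed genes 16 were measured, and APOM and CLU were not analysed here. The 16 had a median log2 difference of -0.43, the same as all genes, and 12 of them exceeded the 95th percentile of the negative controls in no array. The median over gene probe sets was below that percentile in every array too. APOA4, an apolipoprotein of intestinal lipoproteins, was the only one past the fold and p limits. Its log2 values were 5.06, 6.57 and 6.72 in the P-bi-TAT arrays and 8.18, 7.31 and 7.13 in the untreated arrays, a log2 difference of -1.42 (limma, unadjusted p = 0.0473, adjusted p = 0.847). It was -0.90 (unadjusted p = 0.0759) on omitting P-bi-TAT replicate 1. APOE, the main apolipoprotein of the brain, had a log2 difference of -0.91, LPA one of 0.09 and APOC2 one of 0.06.

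Genes whose proteins are described as partners of APOL proteins gave 0 genes at these limits, of 6 measured, with or without P-bi-TAT replicate 1, and PHB2 was not analysed here. NCS1, a neuronal calcium sensor, had a log2 difference of 0.33, and PI4KB, a phosphatidylinositol kinase of the Golgi, one of -1.0, the pair with which APOL3 is known to interact. VAMP8, a vesicle fusion protein described with APOL1, had one of -0.93 and was lower without overlap, as were 14.5% of all genes, but exceeded the 95th percentile of the negative controls in no array. HP, the haptoglobin gene, had one of 0.06. Of the genes of the BH3-only group, to which the motif of APOL6 is likened, 7 were measured, BBC3 was not analysed here, and 0 passed with all 6 arrays. In the 5 other arrays, with P-bi-TAT replicate 1 omitted, 3 of the 7 were higher at these limits, against 9.26% of all genes. BID, which links death receptors to mitochondria, then had a log2 difference of 1.91, against 1.03 with all 6 arrays, and BAD one of 2.08, against 0.76. BIK and HRK had -1.36 and -0.83 with all 6 arrays, and -0.81 and -0.67 without P-bi-TAT replicate 1. Both exceeded the 95th percentile of the negative controls in no array.

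Markers fitted the labelled line in part. Of 9 measured genes listed as glioma cell markers, 6 exceeded the 95th percentile of the negative controls in all 6 arrays, with VIM, an intermediate filament protein, at 14.49 to 16.65 after P-bi-TAT and 14.92 to 15.45 in untreated cells. NES, the neural progenitor filament nestin, and CHI3L1 exceeded it in no array. None of the 8 endothelial markers and none of the 6 hepatocyte markers exceeded it in any array, and the summed log2 level of the endothelial markers was 23.71 to 29.89 after P-bi-TAT and 29.92 to 32.83 in untreated cells. Of 9 macrophage and leukocyte markers, CD68, a lysosomal protein, did so in all 6 arrays and TYROBP in 1, while PTPRC, which defines leukocytes, did so in none. The summed log2 level of this list was 40.38 to 42.26 after P-bi-TAT and 42.43 to 47.42 in untreated cells. That of the hepatocyte markers was 18.62 to 20.93 after P-bi-TAT and 19.54 to 22.84 in untreated cells. Most genes in these sums exceeded that percentile in no array, and the negative control medians were lower in the P-bi-TAT arrays too. Those medians were 3.20 to 3.27, against 3.67 to 3.98 in the untreated arrays. The sums were not corrected for this and are not read as differences in cell content. The part of these levels in the APOL results was not tested. The arrays cannot tell fewer cells with the transcript from less transcript per cell.

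APOL2 and APOL3 kept their directions under all 15 other ways of processing that were run, and the log2 differences of the 4 other members lay between -0.95 (APOL4) and 0.88 (APOL1). The log2 difference of APOL2 ranged from 1.46 to 2.38 and that of APOL3 from -2.61 to -1.50. With array weights, which give P-bi-TAT replicate 1 the least weight, APOL2 had an adjusted p of 0.0575 and APOL3 one of 0.0960 (limma), the smallest adjusted p-values of either gene in any setting. The probe sequences were not part of the sources used here, and the APOL1 to APOL4 transcripts are similar, so hybridization of 1 member's transcripts to another's probes was not tested.

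**Figure D5:**
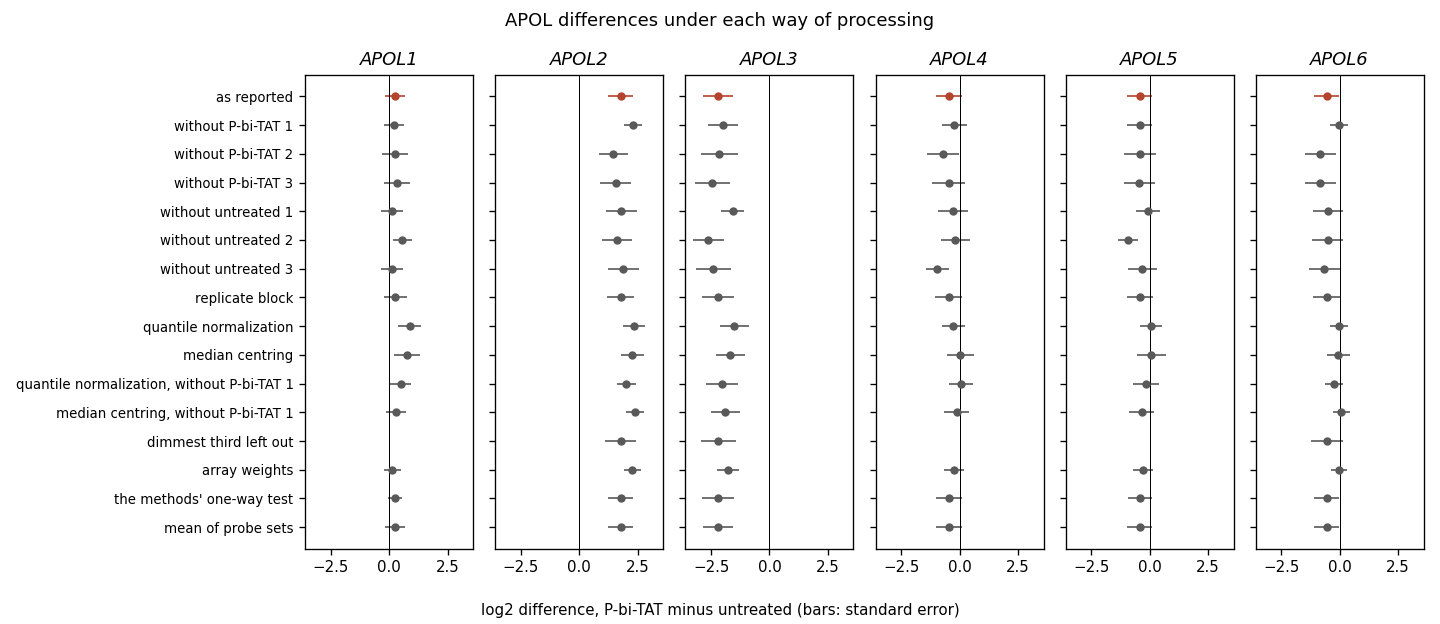
Log2 difference of each APOL member, P-bi-TAT minus untreated, as reported (red) and under each other way of processing (grey), with bars for the standard error. Those for APOL2 lie between 1.46 and 2.38 and those for APOL3 between -2.61 and -1.50, while those of the other members lie between -0.95 and 0.88, and 3 members have no value where the dimmest probe sets were left out.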

How the data were processed

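The authors deposited log2 expression values of probe sets, in a column for each array. RMA and version 4.0.1.36 of the Transcriptome Analysis Console are listed in the submitters' processing notes. The methods give SST-RMA and a different console version, so the normalization is not settled. The values were used as deposited. Groups and replicate numbers came from the sample titles. Control probe sets (2903) did not enter the fit. limma 3.58.1 (lmFit, eBayes; R 4.3.3) was fitted to the remaining 21448, and p-values were adjusted by Benjamini-Hochberg across them. Symbols came from the array annotation, updated by gene identifier, which gave 17687 genes. The members, lists and rule for named genes were chosen with earlier results of these data known. The rule took all members, the 2 highest and 2 lowest log2 differences of each list, and the 3 genes most like each member. The planned motif search was not run, as the promoter table used here has no entry for the members. The fit was tested on simulated data. Alternatives left out each array, changed the scaling, the weights, the filter or the test, or used the replicate number as a block. The number of arrays limits the precision.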

Additional observations from a re-analysis of the deposited data

How the results depend on the processing

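APOL1, APOL2 and APOL3 kept their direction under every alternative run, and 0 members passed an adjusted p under 0.05 in any of them (limma or the methods' one-way test). APOL4 was at 0.039 with median centring and at 0.056 with quantile normalization of the 5 arrays other than P-bi-TAT replicate 1. APOL5 was at 0.059 with quantile normalization and at 0.077 with median centring, and APOL6 at 0.071 with median centring of the 5 arrays other than P-bi-TAT replicate 1. The median log2 difference of the members was 0.015 with quantile normalization and 0.058 with median centring of all 6 arrays, and -0.051 and -0.026 with these scalings of the 5 arrays. It was -0.566 to -0.125 when 1 array was left out.

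Over all gene probe sets the calls at an adjusted p under 0.05 were 9 with array weights and 1 with the methods' one-way test, and 0 to 0 when 1 array was left out. The higher genes at the fold and p limits were 675 with quantile normalization, 381 with median centring, 992 and 1984 with these scalings of the 5 arrays, 12 with the dimmest probe sets left out, 1928 with array weights, and 7 to 1638 when 1 array was left out. The lower genes were 552, 220, 276 and 1694 with quantile normalization, median centring, the dimmest probe sets left out and array weights, and 568 to 939 when 1 array was left out. The causes were not tested, and fewer genes entered the fit where the dimmest probe sets were left out. With these left out APOL1, APOL4 and APOL5 had no value. The search for promoter motifs was not run.

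With the replicate number as a block, APOL2 had 1.77 (unadjusted p = 0.0230) and APOL3 -2.19 (unadjusted p = 0.0175), each with an adjusted p of 0.847 from limma, and the block moved no count by over 1.5 times. The labels give the groups the same numbers but name no pairs, and the numbers were not taken as pairs. The deviations of same-numbered arrays correlated at 0.304, 0.036 and 0.333, against -0.378 to 0.15 for arrays with different numbers. This does not settle whether the arrays were paired.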
